A study of Mus musculus with 6 samples.

Results

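Cytosolic ribosomal protein genes were examined for FOXC2 binding in podocytes, the glomerular cells that carry the slit diaphragm, after injury with adriamycin (ADR) and in PBS controls. The genes were chosen by name, as protein-coding genes of GENCODE M21 whose symbol starts with Rpl or Rps and a digit, with *Rplp0*, *Rplp1*, *Rplp2* and *Rpsa* added and S6 kinase genes (Rps6k) and pseudogenes left out. This gave 86 of 21938 protein-coding genes, spread over 19 chromosomes. Of these, 52 carry large subunit symbols and 33 small subunit symbols. The remaining one, *Rps19bp1*, meets the rule by its symbol only and encodes a nucleolar protein that binds RPS19.

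The injured mice were adult mice with the mTmG reporter and a Cre active in podocytes, given ADR at 18 mg/kg on day 0 and day 7. The controls were mice of the same genotype given PBS, and podocytes of both were sorted by FACS on day 9 from the green label that Cre turns on. FOXC2 ChIP-seq was done on 3 samples per condition, which the authors pooled, so the data are 1 peak list for ADR (40067 peaks) and 1 for PBS (41075 peaks). Neither list has replicates, so the values have no replicate error, and differences between ADR and PBS are descriptions of these lists with no test. Each peak has a fold, the authors' enrichment at the summit over the local control of its own list, and the read depth behind the lists is unknown. The lists hold binding sites and not expression, so the sorted cell type could only be looked at through binding. Peaks were found within 10 kb of the podocyte genes *Nphs1* (3 ADR and 3 PBS) and *Podxl* (7 ADR and 3 PBS). A peak lay that near to 55.9% (ADR) and 58.8% (PBS) of all protein-coding genes, so these peaks cannot tell the cell type.

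Ribosomal proteins assemble with ribosomal RNA into the small subunit, which decodes mRNA, and the large subunit, which joins amino acids. Their genes are transcribed at high rates in growing cells from compact promoters, in which binding sites for general factors such as SP1, YY1 and the ETS factor GABP are common. Their mRNAs typically begin in a tract of pyrimidines, through which mTOR and LARP1 control their translation. FOXC2 is a forkhead factor, and WT1, a zinc finger factor of podocytes, recognizes a G-rich site.

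Most cytosolic ribosomal protein genes had a FOXC2 peak at the gene start in both conditions. A start-site peak was defined as the strongest peak with a summit no more than 1 kb from the annotated gene start. Such a peak was found at 72 of 86 genes in the ADR list (83.7%, 95% Wilson interval 74.5 to 90.0%) and at 78 of 86 in the PBS list (90.7%, 82.7 to 95.2%). Over all protein-coding genes the share was 44.8% in the ADR list and 47.6% in the PBS list. Wilson intervals here cover counting error only. Every one of the 72 genes bound in the ADR list was also bound in the PBS list, and at 71 of them the peaks overlapped. The exception was *Rpl19*, whose summit lay 88 bp upstream of the start in the ADR list and 375 bp downstream in the PBS list.

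Without the 6 paralogs named by the rule and *Rps19bp1*, the counts were 69 of 79 genes in the ADR list and 74 of 79 in the PBS list. Small subunit genes had a start-site peak at 30 of 33 in the ADR list and 31 of 33 in the PBS list. Large subunit genes had one at 41 of 52 in the ADR list and 46 of 52 in the PBS list. These shares depended on how strict the list was. Among the 20000 peaks with the smallest q of each list, only 38 genes kept a start-site peak in the ADR list (44.2%, against 25.0% of all protein-coding genes) and 53 in the PBS list (61.6%, against 31.1%).

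Folds at the start sites lay near the middle of those of other promoters. The median fold was 7.63 in the ADR list (quartiles 5.96 and 12.0) and 8.01 in the PBS list (5.92 and 11.4), while all protein-coding genes with a start-site peak had medians of 8.06 in the ADR list and 7.98 in the PBS list. The members ranged over 3.06 to 28.9 in the ADR list and 3.48 to 50.7 in the PBS list. They were thus bound more often than the average coding gene, at folds close to the average.

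**Figure D1:**
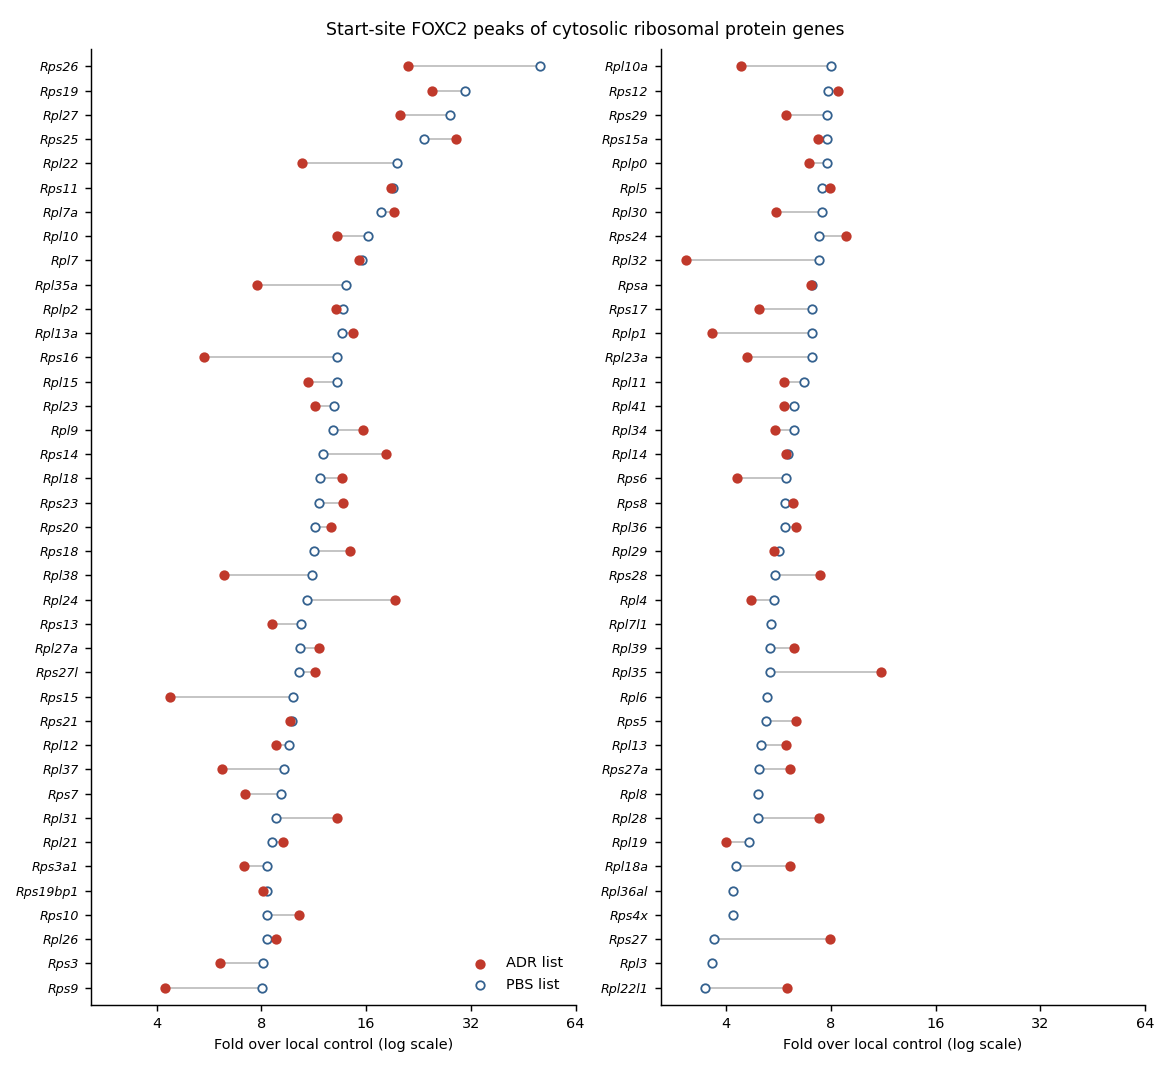
Authors' fold over the local control (log axis) at the start-site peak of each of the 78 genes with such a peak, sorted by the PBS fold from the left panel down to the right panel. Filled points are the ADR list and open points the PBS list, 1 pooled list each. *Rps25* stands highest in the ADR list at 28.9 and *Rps26* in the PBS list at 50.7, and the 6 genes with an open point alone all lie at 5.38 or lower in the PBS list.

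The strongest start-site peaks belonged to 3 small subunit genes and *Rpl27*. *Rps26*, whose protein contacts mRNA where it leaves the ribosome and which is mutated in human Diamond-Blackfan anemia, had a fold of 21.1 in the ADR list and 50.7 in the PBS list. *Rps19*, the most often mutated gene in that anemia, had 24.8 in the ADR list and 30.8 in the PBS list. *Rps25*, whose protein is used in initiation from internal entry sites, had 28.9 in the ADR list and 23.5 in the PBS list. These genes were among the 5 highest members in both lists, whichever condition was higher.

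*Rpl27*, a large subunit gene, had 19.96 in the ADR list and 27.9 in the PBS list. The fifth member was *Rpl24* in the ADR list, with a fold of 19.4 there and 10.8 in the PBS list, and *Rpl22* in the PBS list, with 10.5 in the ADR list and 19.7 in the PBS list. The mouse mutant Belly spot and tail carries a defect of *Rpl24*, and RPL22 is a large subunit protein that also binds viral RNA.

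The genomic sequence at these sites is shown for the 4 genes high in both lists, 201 bases centered on the ADR summit and read along the gene. Capitals mark exact matches to a WT1-like form, GNGTGGGNG or GNGGGGGNG, on either strand. Coordinates are on GRCm38.
Rps26 (chr10:128626740-128626940, minus strand): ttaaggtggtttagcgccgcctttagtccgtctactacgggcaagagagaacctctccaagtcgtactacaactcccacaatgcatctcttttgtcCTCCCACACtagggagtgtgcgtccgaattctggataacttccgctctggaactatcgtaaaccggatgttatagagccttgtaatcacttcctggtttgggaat
Rps25 (chr9:44406919-44407119, plus strand): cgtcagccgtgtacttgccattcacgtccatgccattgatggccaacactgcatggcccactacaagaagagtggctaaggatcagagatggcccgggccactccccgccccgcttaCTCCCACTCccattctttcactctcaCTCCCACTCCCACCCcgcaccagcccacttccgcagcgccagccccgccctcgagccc
Rpl27 (chr11:101441951-101442151, plus strand): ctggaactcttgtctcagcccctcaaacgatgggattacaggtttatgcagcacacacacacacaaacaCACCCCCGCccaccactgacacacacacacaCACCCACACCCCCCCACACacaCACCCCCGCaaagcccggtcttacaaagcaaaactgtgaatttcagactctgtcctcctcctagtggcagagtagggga
Rps19 (chr7:24884248-24884448, plus strand): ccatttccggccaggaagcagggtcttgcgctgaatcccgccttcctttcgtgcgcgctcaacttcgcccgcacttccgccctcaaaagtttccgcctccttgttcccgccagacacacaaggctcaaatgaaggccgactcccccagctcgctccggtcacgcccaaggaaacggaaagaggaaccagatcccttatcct
*Rps26* held 1 match, near the summit, *Rps25* held 3 and *Rpl27* held 6. The matches of *Rpl27* lay in or beside a run of alternating C and A. *Rps19* held none, so a high fold was found with and without this form.

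Of the other genes fixed by role, the acidic stalk genes differed from each other. The stalk of the large subunit recruits elongation factors and is built from the products of *Rplp0*, *Rplp1* and *Rplp2*. *Rplp2* had a fold of 13.1 in the ADR list and 13.8 in the PBS list. *Rplp0* had 6.92 in the ADR list and 7.82 in the PBS list. *Rplp1* had 3.65 in the ADR list and 7.04 in the PBS list.

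*Rpl5*, *Rpl11*, *Rpl23* and *Rpl26* encode ribosomal proteins that bind MDM2 when ribosome assembly is disturbed, and so link it to p53. These genes, fixed by role, had a start-site peak in both lists. So did 72 of the 86 members and 9293 of 21938 protein-coding genes. *Rpl5* had a fold of 7.94 in the ADR list and 7.56 in the PBS list. *Rpl11*, which forms a particle with RPL5 and 5S ribosomal RNA, had 5.86 in the ADR list and 6.70 in the PBS list. *Rpl23* had 11.4 in the ADR list and 13.0 in the PBS list. For *Rpl26*, whose protein also binds p53 mRNA, the fold was 8.84 in the ADR list and 8.33 in the PBS list. On the log2 scale the differences (ADR minus PBS) were 0.07 for *Rpl5*, -0.20 for *Rpl11*, -0.18 for *Rpl23* and 0.08 for *Rpl26*.

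Among the remaining role genes, *Rps6*, whose protein is phosphorylated by the S6 kinases, had a fold of 4.31 in the ADR list and 5.94 in the PBS list. *Rps14*, whose loss is linked to the anemia of human 5q- syndrome, had 18.2 in the ADR list and 12.0 in the PBS list. *Rpsa*, which encodes a small subunit protein also known as a laminin receptor, had 7.03 in the ADR list and 7.04 in the PBS list. The fold of the strongest start-site peak at *Rpsa* was thus nearly the same in both lists, while that at *Rps6* was lower and that at *Rps14* higher in the ADR list. At *Rpsa* the PBS list also held a second start-site peak, 411 bp upstream with a fold of 6.78, that no ADR peak overlapped.

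*Rps27a* encodes a fusion of ubiquitin and a small subunit protein and had a fold of 6.10 in the ADR list and 4.98 in the PBS list. Its ADR summit lay 184 bp inside the gene and 25 bp from the start of the neighboring gene *Clhc1*. *Rpl13a*, whose protein can leave the ribosome to silence inflammatory mRNAs, had 14.7 in the ADR list and 13.6 in the PBS list. *Rpl10*, which joins the large subunit late in its assembly, had 13.2 in the ADR list and 16.2 in the PBS list. The log2 difference was 0.29 at *Rps27a*, 0.11 at *Rpl13a* and -0.30 at *Rpl10*.

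Across all 72 genes with a start-site peak in both lists, the log2 fold difference (ADR minus PBS) had a median of -0.04, with quartiles of -0.36 and 0.23. Of these genes, 31 had the higher fold in the ADR list and 41 the lower. For the 9293 protein-coding genes with a start-site peak in both lists the median was -0.06, and 45.3% were higher in the ADR list. Log2 folds of the lists correlated across the 72 genes with Pearson's r = 0.74 (0.77 over all 9293). The genes are not independent replicates, and the r is a description only.

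Ranked within its own list, a start-site peak of a member stood lower in the ADR list. The median percentile was 51.6 in the ADR list and 63.4 in the PBS list, and the median difference per gene was -8.94 percentage points. The difference over all protein-coding genes was -7.15 percentage points. The median fold of the whole list was 7.42 over all ADR peaks and 6.53 over all PBS peaks.

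At least 2-fold higher in the ADR list were 2 genes, where 2.82% of all protein-coding genes were. *Rps27*, which encodes a zinc finger protein of the small subunit, had a fold of 7.94 in the ADR list and 3.69 in the PBS list, a log2 difference of 1.11. *Rpl35*, whose protein sits near the exit of the nascent peptide, had 11.2 in the ADR list and 5.33 in the PBS list, a log2 difference of 1.07. The summit at *Rpl35* lay 386 bp inside the gene in the ADR list and 110 bp from the start of the neighboring gene *Arpc5l*. Next were *Rpl24* (0.84), the paralog *Rpl22l1* (0.78, with folds of 6.003 in the ADR list and 3.48 in the PBS list) and *Rps14* (0.60).

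At least 2-fold lower in the ADR list were 4 genes, where 4.37% of all protein-coding genes were. *Rps16*, a small subunit gene, had a fold of 5.46 in the ADR list and 13.2 in the PBS list, a log2 difference of -1.28. *Rpl32*, a large subunit gene, had 3.06 in the ADR list and 7.41 in the PBS list, also -1.28. The difference was -1.27 at *Rps26*, the strongest member of the PBS list. *Rps15*, whose protein lies near the decoding center, had 4.38 in the ADR list and 9.88 in the PBS list, a difference of -1.17. *Rplp1* followed with -0.95.

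The site at *Rpl32* also moved. Its summit lay 301 bp upstream of the start in the ADR list and 26 bp upstream in the PBS list, so the ADR peak is both weaker and farther out. At *Rps16*, *Rps26* and *Rps15* the summits of the lists lay within 25 bp of each other.

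Sequences of the genes at both ends of this order follow, 201 bases centered on the ADR summit along the gene, to show which motif letters stood there. Capitals mark the WT1-like form at *Rps16*, AANATGGC (the YY1 core) at *Rps27* and *Rpl24*, and CCGGAAG (the ETS core) at *Rpl35*, on either strand.
Rps16 (chr7:28350550-28350750, plus strand): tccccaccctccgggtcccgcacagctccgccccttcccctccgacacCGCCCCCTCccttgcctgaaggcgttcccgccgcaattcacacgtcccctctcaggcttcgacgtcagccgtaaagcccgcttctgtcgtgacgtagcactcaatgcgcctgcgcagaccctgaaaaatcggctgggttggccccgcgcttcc
Rps27 (chr3:90213525-90213725, minus strand): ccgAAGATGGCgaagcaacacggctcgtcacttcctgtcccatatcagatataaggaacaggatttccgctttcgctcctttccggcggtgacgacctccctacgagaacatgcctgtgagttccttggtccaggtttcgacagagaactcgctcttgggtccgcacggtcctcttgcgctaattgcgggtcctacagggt
Rpl24 (chr16:55966234-55966434, plus strand): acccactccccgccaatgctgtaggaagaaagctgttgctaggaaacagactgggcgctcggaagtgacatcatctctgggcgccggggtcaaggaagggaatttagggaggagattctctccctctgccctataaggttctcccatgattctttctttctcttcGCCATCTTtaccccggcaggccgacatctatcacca
Rpl35 (chr2:39005138-39005338, minus strand): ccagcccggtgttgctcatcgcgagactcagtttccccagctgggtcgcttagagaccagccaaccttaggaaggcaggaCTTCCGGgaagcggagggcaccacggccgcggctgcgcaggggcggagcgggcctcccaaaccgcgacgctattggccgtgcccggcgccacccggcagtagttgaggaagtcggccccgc
No motif was found at every gene of either end. Of the 2 other genes lower by 2-fold, *Rpl32* and *Rps15*, neither held a WT1, ETS, YY1 or SP and KLF match in the ADR window. In the window around the PBS summit, *Rpl32* held the ETS core and *Rps15* held none of these motifs.

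No gene had a start-site peak in the ADR list only, where 2.4% of all protein-coding genes did. In the PBS list only, 6 of 86 genes had one, where 5.27% of all protein-coding genes did. Those shares include genes without a start-site peak in either list, 8 of the members and 10962 of all 21938. Of genes with a start-site peak in the PBS list, 6 of 78 members and 1156 of 10449 protein-coding genes had none in the ADR list. Of those with one in the ADR list, 0 of 72 members and 527 of 9820 protein-coding genes had none in the PBS list. The PBS folds of the 6 members were low. *Rpl7l1*, a paralog, had 5.38, *Rpl6* had 5.23, *Rpl8* had 4.95, *Rpl36al* had 4.20, *Rps4x* had 4.19 and *Rpl3* had 3.64. RPL3 and RPL8 lie close to the peptidyl transferase center, and *Rps4x* is the X-linked copy of its gene. All 6 folds were below the lower quartile of the members in the PBS list. The summit at *Rpl3* lay 998 bp upstream, at the edge of the window. The status of *Rpl3* depended on the start used, since other transcripts of the gene begin near a peak of fold 12.6 in the ADR list and 14.3 in the PBS list, 8376 bp inside the gene record by the ADR summit.

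Neither list held a start-site peak at 8 genes. *Rpl10l* and *Rpl39l* are paralogs used in the testis, and *Rpl3l* is the paralog of striated muscle. The others were *Rpl36a*, *Rpl37a*, *Rps27rt*, *Rps2* and *Rpl17*. At *Rps2* and *Rpl17* the start of the gene record may not be the start in use, since other annotated transcripts begin farther inside. *Rps2* had a peak 1869 bp inside the gene in the ADR list (fold 10.8) and 1973 bp inside in the PBS list (8.85), and *Rpl17* one of fold 5.23 at 1983 bp in the ADR list only. With every annotated transcript start allowed, 75 genes had a start-site peak in the ADR list and 79 in the PBS list, and *Rpl17* became the 1 gene with a peak in the ADR list only.

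Of the paralogs named, *Rps27l*, a p53 target, had a fold of 11.4 in the ADR list and 10.3 in the PBS list, and *Rpl22l1* was bound in both lists. Paralogs and *Rps19bp1* together had a start-site peak at 3 of 7 genes in the ADR list and 4 of 7 in the PBS list. Ribosomal protein genes also have many processed pseudogenes. Of 294 annotated ones, 7 (2.38%) had a summit within 1 kb of the start in the ADR list and 5 (1.70%) in the PBS list. Annotated copies were thus seldom bound at the start, unlike the genes themselves. How reads that match several copies were handled is not given in the sources used here.

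**Figure D2:**
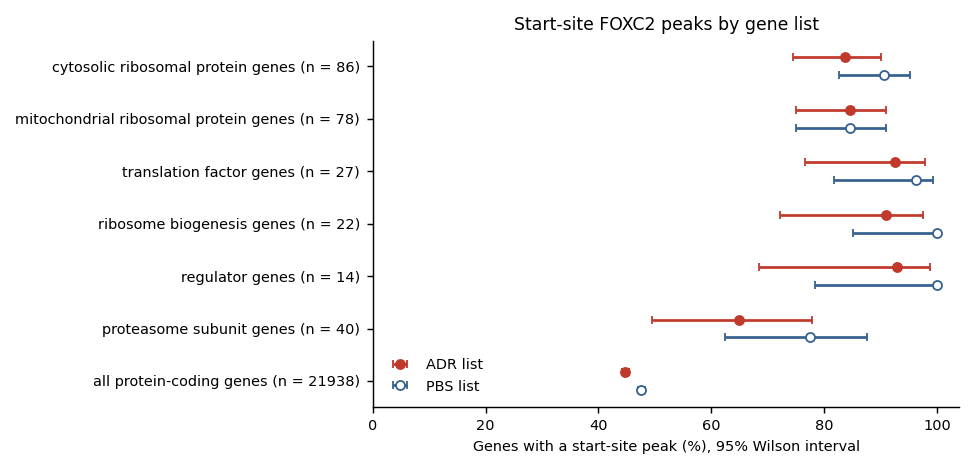
Share of genes with a start-site FOXC2 peak in each gene list, ADR list above PBS list, with 95% Wilson intervals. Cytosolic ribosomal protein genes (83.7% ADR, 90.7% PBS) stand with the other lists of protein synthesis, and all of these lie above all protein-coding genes (44.8% ADR, 47.6% PBS).

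A high share of bound starts was not seen at cytosolic ribosomal protein genes alone. The mitochondrial ribosomal protein genes had a start-site peak at 66 of 78 genes (84.6%) in each list, translation factor genes at 25 of 27 (ADR) and 26 of 27 (PBS), and ribosome biogenesis genes at 20 of 22 (ADR) and 22 of 22 (PBS). Proteasome subunit genes were at 26 of 40 (65.0%) in the ADR list and 31 of 40 (77.5%) in the PBS list. *Fau* and *Rack1*, which encode ribosomal proteins under other names, were bound in both lists. The fold of *Fau* was 18.6 in the ADR list and 15.1 in the PBS list and that of *Rack1* 16.4 in the ADR list and 12.4 in the PBS list.

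The median log2 fold difference was -0.26 for the mitochondrial list, with 21 genes higher in the ADR list and 42 lower, and -0.29 for ribosome biogenesis, with 7 higher and 13 lower. Both medians lay below that of the cytosolic genes, while those of proteasome subunit genes (0.01), translation factor genes (-0.01) and regulator genes (0.08) lay above it. *Eef1a1*, the gene of the main elongation factor, had a fold of 3.76 in the ADR list and 10.03 in the PBS list. *Larp1*, whose protein binds the pyrimidine tract of ribosomal protein mRNAs, had 20.5 in the ADR list and 10.6 in the PBS list.

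Summits sat close to the annotated start. The median position was 18 bp upstream in the ADR list and 7.5 bp upstream in the PBS list. Within 100 bp of the start lay 50 of 72 summits in the ADR list (69.4%) and 49 of 78 in the PBS list (62.8%), while over all protein-coding genes with a start-site peak the shares were 46.1% in the ADR list and 44.4% in the PBS list. Between the lists, the summits of a gene lay a median of 30 bp apart, as over all protein-coding genes (30 bp). The GC content around the summits was lower at the members, with a median of 60.7% in the ADR list and 61.7% in the PBS list, against 65.7% in the ADR list and 65.2% in the PBS list over all protein-coding genes.

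**Figure D3:**
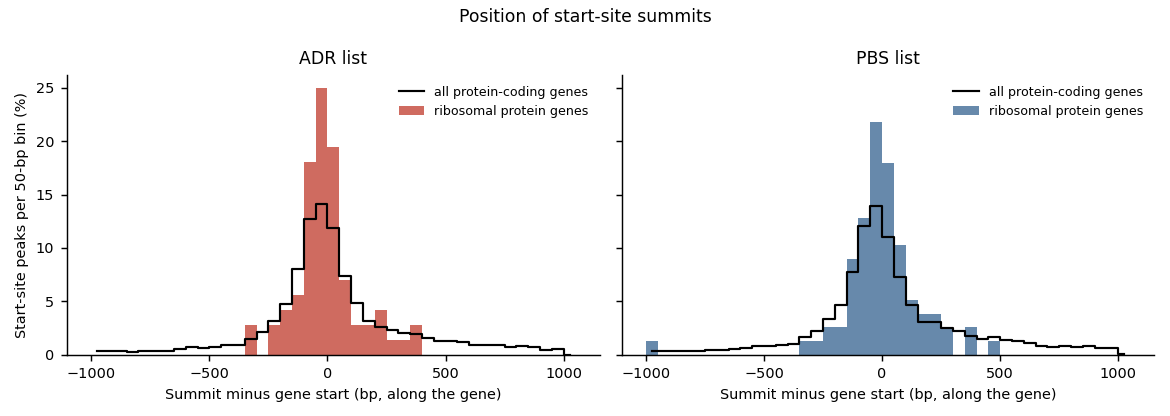
Distance of the start-site summit from the gene start in 50-bp bins (negative is upstream), as a percent of the start-site peaks of 72 (ADR) and 78 (PBS) ribosomal protein genes in bars and of all protein-coding genes as a line. The tallest bar in both panels, 25.0% (ADR) and 21.8% (PBS), covers the 50 bp just upstream of the start.

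The forkhead core, TAAACA, was nearly absent under these summits. Within 100 bp of the summit, 1 of 72 ADR peaks (1.39%) and 1 of 78 PBS peaks (1.28%) held it on either strand, both at *Rplp0*. All start-site peaks held it in 3.73% (ADR) and 3.64% (PBS), inside the members' Wilson intervals (0.25 to 7.46% ADR, 0.23 to 6.91% PBS). In windows as long placed 1 kb before and after the members' summits, 10.4% (ADR) and 8.33% (PBS) held it. Over all protein-coding genes such windows held it at 12.7% (ADR) and 12.9% (PBS), also more often than at the summits. No match says only that these letters are not in the window.

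The WT1-like form was found at 25 of 72 ADR peaks (34.7%, 95% Wilson interval 24.8 to 46.2%) and 24 of 78 PBS peaks (30.8%, 21.6 to 41.7%). Over all protein-coding genes it was found at 37.9% (ADR) and 37.5% (PBS), so the interval of the members holds the general share. GGGCGGG, the SP and KLF core, was at 36.1% (ADR) and 39.7% (PBS), against 40.5% (ADR) and 38.2% (PBS) of all. WT1-like matches shared a base with an SP and KLF match at 5 members in each list.

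The ETS core was at 19 ADR peaks (26.4%, 17.6 to 37.6%) and 22 PBS peaks (28.2%, 19.4 to 39.0%), against 15.9% (ADR) and 15.1% (PBS) of all start-site peaks. The YY1 core was at 12 ADR peaks (16.7%, 9.80 to 26.9%) and 11 PBS peaks (14.1%, 8.06 to 23.5%), against 6.41% (ADR) and 6.61% (PBS). Within 100 bp of the summit, the intervals of both cores lay above the general share in both lists. TATAAA was at 6.94% (ADR) and 3.85% (PBS), against 2.33% (ADR) and 2.11% (PBS), with an interval that held the general share in the PBS list. The ETS and YY1 cores were about as common in the promoters of all 86 genes taken without regard to peaks, from 250 bp before to 50 bp after the start, at 26.7% for ETS and 12.8% for YY1, against 10.8% and 6.16% of all protein-coding promoters.

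The TEAD form CATTCC was at 1.39% (ADR) and 2.56% (PBS), against 7.86% (ADR) and 7.91% (PBS) of all. The AP-1 forms TGACTCA or TGAGTCA were at 1.39% (ADR) and 2.56% (PBS), against 1.72% (ADR) and 2.49% (PBS) of all. The LMX1B form TTAATTA was at 0 peaks of either list (up to 5.07% ADR and 4.69% PBS by the Wilson limit). It was also rare over all start-site peaks, at 0.47% (ADR) and 0.33% (PBS). CCAAT was at 27.8% (ADR) and 24.4% (PBS), against 26.4% (ADR) and 25.8% (PBS) of all. The NRF1 form GCATGCG was at 9.72% (ADR) and 3.85% (PBS), against 4.96% (ADR) and 4.41% (PBS) of all.

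**Figure D4:**
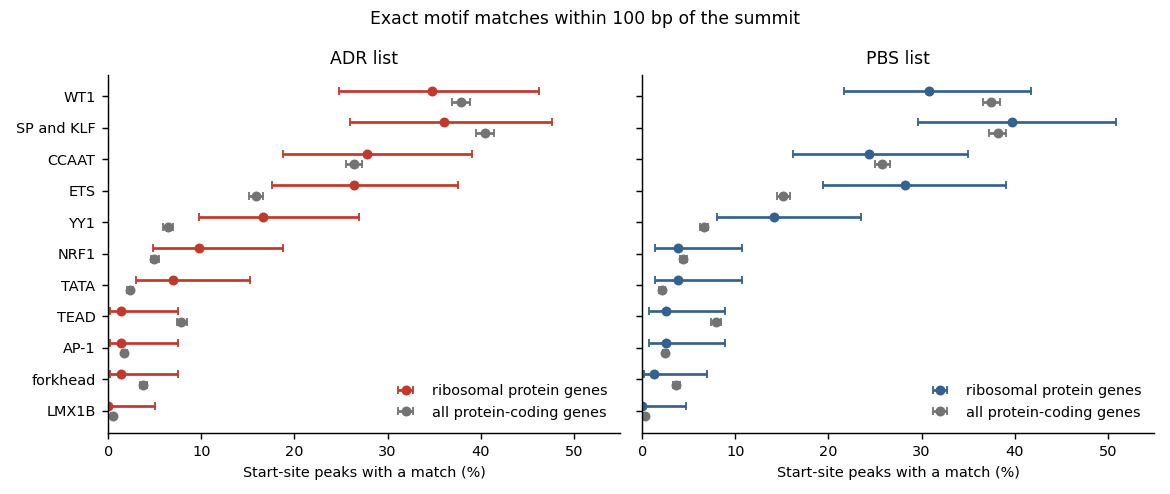
Share of start-site peaks with an exact motif match within 100 bp of the summit, ADR list in the left panel and PBS list in the right panel, with 95% Wilson intervals. Colored points are ribosomal protein genes and gray points all protein-coding genes. ETS (26.4% ADR, 28.2% PBS) and YY1 (16.7% ADR, 14.1% PBS) lie to the right of the gray points, and the forkhead core is at or below 1.39%.

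Members with a WT1-like match had higher folds. The median fold was 11.8 with a match (n = 25) and 6.37 without (n = 47) in the ADR list, and 11.8 with a match (n = 24) and 7.04 without (n = 54) in the PBS list. All protein-coding genes showed the same order, with 10.2 and 7.21 in the ADR list and 10.1 and 7.18 in the PBS list. Members with the ETS core had lower medians, at 6.36 with it and 7.94 without it in the ADR list and 7.06 with it and 8.21 without it in the PBS list. Over all protein-coding genes the order for ETS was the same, at 7.42 with it and 8.18 without it in the ADR list. In the PBS list the medians over all were 7.68 with it and 8.07 without it. The peaks with a WT1-like match reached from 4.41, at *Rpl10a*, to 28.9, at *Rps25*, in the ADR list, so the groups overlap over most of their range.

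**Figure D5:**
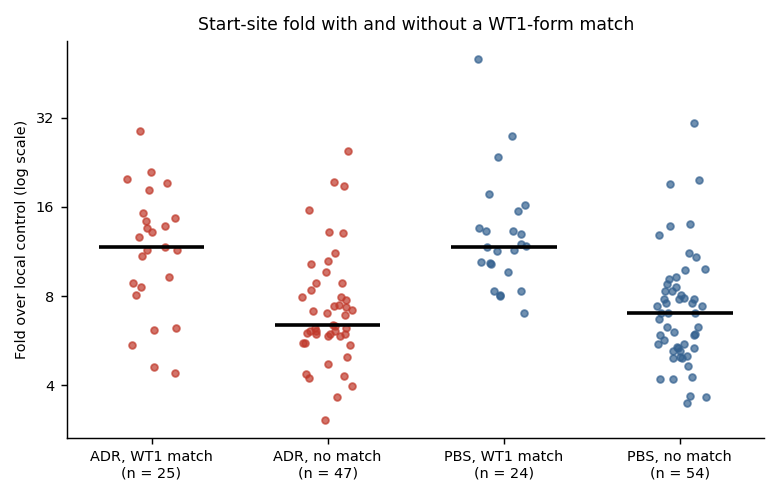
Fold over the local control (log axis) at each member's start-site peak with and without a WT1-like match within 100 bp of the summit, ADR list on the left and PBS list on the right. Points are genes and bars medians, 11.8 with a match and 6.37 without in the ADR list, and 11.8 with a match and 7.04 without in the PBS list.

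The pyrimidine tract at the mRNA start was looked for at the annotated start base. A run of at least 5 pyrimidines over that base was found at 14 of 86 genes (16.3%), against 9.93% of all protein-coding genes, and C stood at the start base in 31.4%, against 17.1%. This base is the outer end of the gene record and may not be the start in use, so tracts a few bases away were not counted. The longest tracts are shown, 31 bases centered on the annotated start along the gene with the run in capitals.
Rpl32 (chr6:115808732-115808762, minus strand): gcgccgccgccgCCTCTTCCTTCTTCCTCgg
Rpl4 (chr9:64173360-64173390, plus strand): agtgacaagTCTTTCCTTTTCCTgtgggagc
Rpl31 (chr1:39367827-39367857, plus strand): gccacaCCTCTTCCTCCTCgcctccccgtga
Rpl37a (chr1:72711275-72711305, plus strand): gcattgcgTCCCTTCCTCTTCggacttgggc
Runs were 17 bases at *Rpl32*, 14 at *Rpl4* and 13 at *Rpl31* and *Rpl37a*. *Rpl37a* had no peak within 10 kb in either list, and *Rpl31* had a fold of 13.2 in the ADR list and 8.80 in the PBS list, so a long tract was found at bound and unbound starts. Median folds of members with and without a run at the annotated start were 7.37 and 7.63 in the ADR list and 8.34 and 8.01 in the PBS list.

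Counted more widely, 80 of the 86 genes (93.0%) had any part of a peak within 10 kb in the ADR list and 82 (95.3%) in the PBS list, against 55.9% (ADR) and 58.8% (PBS) of all protein-coding genes. Only *Rpl10l*, *Rpl36a*, *Rpl37a* and *Rpl39l* had none in either list. More ADR than PBS peaks were found at 11 genes (10.8% of all protein-coding genes), fewer at 21 (18.7% of all) and the same number at 54. Of all 21938 protein-coding genes, 2373 had more and 4095 fewer, but 8438 had no peak in either list and could show neither. That held for only 4 members, so these shares are not like for like. The 11 genes each gained 1 peak, and the 7 with the largest loss, *Rpl3*, *Rpl7*, *Rpl7l1*, *Rpl8*, *Rps14*, *Rps15* and *Rps21*, had 2 fewer ADR peaks.

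These windows are crowded. Another protein-coding gene starts within 10 kb at 48 members (55.8%, against 29.4% of all protein-coding genes), and within 1 kb at 16 (18.6%, against 12.6%). In the ADR list the start-site summits of *Rpl7a*, *Rpl9*, *Rpl12*, *Rpl15*, *Rpl35*, *Rps18*, *Rps24*, *Rps27a* and *Rps28* were nearer to such a neighbor's start than to their own. Beyond the start-site peaks, 79 distinct ADR peaks and 83 distinct PBS peaks lay in the windows, and of these 61 ADR and 64 PBS peaks had another gene's start nearest. Of the distinct peaks in the windows, 10.97% (ADR) and 15.7% (PBS) were not overlapped in the other list, against 32.3% (ADR) and 33.1% (PBS) of the whole lists. The whole lists also hold peaks far from gene starts. The share in the windows of other genes was not computed, so this gap is not read as particular to the members.

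At 4 sites away from the start, nearest to the member's own start, the fold exceeded that of the start-site peak in both lists. This criterion was set after the values were seen. At *Rps14*, a peak 2249 bp upstream (chr18:60744594-60745162) had a fold of 36.9 in the ADR list and 16.9 in the PBS list. At *Rps16*, a peak 6457 bp downstream of the start (chr7:28356837-28357443) had 29.4 in the ADR list and 16.1 in the PBS list, while the start-site peak of that gene was lower in the ADR list. At *Rpl35*, a peak 2472 bp upstream (chr2:39007813-39008390) had 28.7 in the ADR list and 24.3 in the PBS list. At *Rpl14*, a peak 5771 bp downstream of the start had 10.6 in the ADR list and 10.9 in the PBS list. Such sites were not counted over all protein-coding genes, so no common direction is read from the 4 sites. Further sites exceeded the start-site peak in 1 list alone, a second one at *Rps16* in the ADR list and sites at *Rpl19*, *Rpl35* and *Rps24* in the PBS list. That at *Rps24* had a fold of 3.29 in the ADR list and 8.04 in the PBS list.

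*Rpl18* had the most ADR peaks within 10 kb, 7 in the ADR list, against 6 in the PBS list. Its start-site peak had a fold of 13.6 in the ADR list and 11.8 in the PBS list, with the summit 152 bp upstream in both. The ADR list held a broad peak at chr7:45709827-45713521 (fold 13.2) that no PBS peak overlapped. Farther upstream stood peaks nearest to *Dbp*, a clock gene, with folds up to 27.3 in the ADR list and 19.5 in the PBS list.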

How the data were processed

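FOXC2 ChIP-seq was done on FACS-sorted podocytes with 3 samples per condition and 50-bp single-end reads. Reads were trimmed by the authors, aligned to GRCm38 and given to nf-core/chipseq for narrow peak calling, with each condition pooled. The caller's version and threshold and the read depth are not given in the sources used here. The deposited lists give positions, summits, the authors' fold enrichment (a ratio to local control) and, for q, its −log10 value. The deposited score and the p column were not used. The peak totals of the deposited lists are not those given in the study's text, and the lists were used as deposited.

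Genes came from GENCODE M21, without mitochondrial genes, and sequence from the RefSeq copy of GRCm38. A peak counted within 10 kb by any part and at the start by its summit within 1 kb. Peaks sharing at least 1 bp overlapped. Motif letters had to match exactly, on either strand, no more than 100 bp from the summit. The members and gene lists were chosen with earlier results of these data known. Named genes were the 5 highest folds of each list, the 5 largest and 5 smallest log2 fold differences and changes in peak number, genes bound in 1 list only, genes without peaks and a list by role. The translation factor, biogenesis and regulator lists were picked by hand. Results at some genes are not reported here. No test was run, since each condition is 1 pooled list. Intervals are 95% Wilson intervals. Counting and matching were checked on simulated peaks. Python 3.11.15, NumPy 2.4.6, pandas 2.3.3, SciPy 1.17.1, pysam 0.24.0 and matplotlib 3.10.9 were used. Alternatives were windows of 5 and 50 kb, other starts, stricter peaks, other overlaps and motif windows.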

Additional observations from a re-analysis of the deposited data

How the results depend on the processing

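Of 97 alternative values, 75 stayed near the value reported and 22 moved. Changes of sign were not labeled apart, so a small median log2 difference could change sign and still count as near. No paired analysis was possible because each condition is 1 pooled list, and no replicate could be left out. Among the 20000 peaks with the smallest q, 51 genes had an ADR peak within 10 kb and 4 had more ADR peaks. There 38 genes had an ADR start-site peak, 17 had one in the PBS list only and 2 in the ADR list only. Of all protein-coding genes, 25.0% had a start-site peak there in the ADR list and 31.1% in the PBS list, also a lower share in the ADR list. Genes with more ADR peaks were 7 within 5 kb (8.06% of all protein-coding genes) and 18 within 50 kb (20.9% of all), and those with fewer were 45 within 50 kb (33.9% of all). Those shares again include genes without a peak in either list. A start-site peak in the ADR list only was found at 1 gene with any transcript start, 1 with a −log10 q threshold of 5 and 5 with a fold threshold of 5, where 11 genes had one in the PBS list only. Start-site peaks without a counterpart were 1 ADR and 7 PBS peaks at 1 shared bp. They became 7 ADR and 13 PBS peaks when 50% of both peaks had to overlap, and 2 ADR peaks with summits within 200 bp. Where no share of all protein-coding genes is given, it was not computed for that setting, so those counts are not read as particular to the members. As percentile ranks, the median difference was -8.94 percentage points, while the median log2 difference lay between -0.07 (folds centered on shared peaks) and 0.08 (the 20000 peaks, chosen with the other stricter peaks for this value after seeing the data). Within 50 bp of the summit, matches fell to 23.6% for WT1 (ADR), 0% for forkhead (PBS), 13.9% (ADR) and 12.8% (PBS) for ETS, 8.33% for YY1 (ADR) and 20.5% for SP and KLF (PBS). In that window all start-site peaks held the ETS core at 8.53% (ADR) and 8.77% (PBS) and the YY1 core at 2.77% (ADR). They held the WT1-like form at 26.7% (ADR) and the SP and KLF core at 23.5% (PBS). No intervals were computed within 50 bp, so the statement on the ETS and YY1 intervals holds for 100 bp only. The depth behind the lists is unknown, so a start without a peak may hold binding that was not called.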

Other observations

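Of 14 genes that regulate ribosomal protein synthesis or sense its failure, 13 had a start-site peak in the ADR list and 14 in the PBS list. *Mtor*, the kinase that drives translation of these mRNAs, had a fold of 7.88 in the ADR list and 10.9 in the PBS list. *Trp53*, which encodes p53, had 10.6 in the ADR list and 8.02 in the PBS list, and *Mdm2*, which encodes its ubiquitin ligase, had 5.28 in the ADR list and 7.30 in the PBS list. *Myc*, an activator of ribosomal protein and ribosome biogenesis genes, had no start-site peak in the ADR list and one of fold 7.30 in the PBS list. *Npm1*, a nucleolar chaperone gene, had 10.9 in the ADR list and 17.7 in the PBS list, and *Ncl*, the nucleolin gene, had 6.90 in the ADR list and 8.59 in the PBS list.

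Within 30 members lay 58 annotated snoRNA genes, which guide the modification of ribosomal RNA. Pseudogene copies with a start-site peak in both lists were *Rpl30-ps6* (fold 9.11 in the ADR list and 4.64 in the PBS list), *Rpl5-ps2* (2.83 in the ADR list and 8.10 in the PBS list) and *Rpl21-ps7* (14.4 in the ADR list and 7.68 in the PBS list).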
